A study of Homo sapiens with 8 samples.

Results

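The collagen genes of hTERT RPE-1 cells were described from peaks of accessible chromatin in mitosis. Members were the protein-coding genes on chromosomes 1 to 22 of the RefSeq GRCh38.p14 gene table whose symbol reads COL, a number, A and a number. This gave 42 genes of the 19122 autosomal protein-coding genes in that table, and the rule reads only symbol, gene type and chromosome. ATAC-seq, in which the transposase Tn5 cuts and tags open DNA, had been run on 8 libraries. hTERT RPE-1 is an immortalised human line derived from retinal pigment epithelium. The cells of all 8 libraries lacked endogenous Plk1 (Plk1-/-) and carried EGFP-Plk1as, an analog-sensitive form of this mitotic kinase, so no library stands for cells with unmodified Plk1. All cells had also been held in mitosis with 5 µM STLC, an inhibitor of the spindle motor Eg5, for 16 h. 4 libraries then received 0.5% DMSO for 2 h and 4 received 10 µM 3MB-PP1, the inhibitor of the analog-sensitive kinase, for 2 h, with STLC kept in both. The mitotic index was above 95% and each reaction held 50000 cells. The labels call the replicates biological, give each group the numbers 1 to 4, and do not say whether the line was 1 clone.

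Collagens are secreted or membrane-bound proteins built from chains that wind into a triple helix. Fibrillar collagens form the fibres of connective tissue, type IV collagens form the sheet-like network of basement membranes, and FACIT collagens decorate fibres. The retinal pigment epithelium rests on Bruch's membrane, a sheet of matrix that holds type IV, VIII and XVIII collagens among others. Genes of the type IV family lie head to head, so each pair shares the short stretch between the starts of its genes. An ATAC-seq peak reports that DNA is open, not that a gene is transcribed, and a mitotic cell transcribes little.

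The sequences below are promoter stretches of some of the members, from RefSeq promoters of GRCh38.p14. They are the DNA between the starts of the type IV pairs, the 250 bases upstream of 3 start sites with a peak in all 8 lists, and the 250 bases upstream of 3 start sites with a peak in none. Capitals mark matches, on either strand, to the TATA box motif TATAAA, the CCAAT box motif CCAAT and the GC box motif GGGCGG. The AP-1 motif TGANTCA was also searched and had no match in any of the 8 stretches. COL4A1-COL4A2 is chr13:110307158-110307283 and COL4A4-COL4A3 is chr2:227164489-227164623, both printed on the plus strand. COL13A1 is chr10:69801656-69801905 (plus), COL12A1 is chr6:75206054-75206303 (minus) and COL7A1 is chr3:48595330-48595579 (minus). COL16A1 is chr1:31704018-31704267 (minus), COL10A1 is chr6:116217145-116217394 (minus) and COL5A1 is chr9:134641553-134641802 (plus).
COL4A1-COL4A2: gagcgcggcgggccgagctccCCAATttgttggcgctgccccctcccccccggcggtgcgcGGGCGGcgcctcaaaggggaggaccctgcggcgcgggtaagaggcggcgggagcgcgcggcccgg
COL4A4-COL4A3: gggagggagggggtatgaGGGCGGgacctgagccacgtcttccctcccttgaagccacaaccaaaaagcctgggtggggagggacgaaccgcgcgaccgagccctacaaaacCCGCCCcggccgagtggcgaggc
COL13A1: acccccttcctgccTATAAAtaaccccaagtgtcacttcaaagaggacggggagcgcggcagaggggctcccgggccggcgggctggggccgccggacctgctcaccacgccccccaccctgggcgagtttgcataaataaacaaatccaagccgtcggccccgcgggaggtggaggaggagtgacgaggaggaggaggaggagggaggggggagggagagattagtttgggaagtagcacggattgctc
COL12A1: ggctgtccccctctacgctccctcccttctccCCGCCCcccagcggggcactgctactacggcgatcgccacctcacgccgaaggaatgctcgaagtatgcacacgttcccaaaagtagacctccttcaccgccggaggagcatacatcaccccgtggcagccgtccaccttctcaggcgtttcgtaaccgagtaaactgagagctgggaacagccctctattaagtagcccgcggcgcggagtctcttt
COL7A1: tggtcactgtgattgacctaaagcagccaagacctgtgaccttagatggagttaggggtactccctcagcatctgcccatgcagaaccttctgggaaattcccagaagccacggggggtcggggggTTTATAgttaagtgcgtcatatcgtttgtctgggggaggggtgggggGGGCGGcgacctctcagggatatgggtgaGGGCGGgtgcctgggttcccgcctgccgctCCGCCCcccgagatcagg
COL16A1: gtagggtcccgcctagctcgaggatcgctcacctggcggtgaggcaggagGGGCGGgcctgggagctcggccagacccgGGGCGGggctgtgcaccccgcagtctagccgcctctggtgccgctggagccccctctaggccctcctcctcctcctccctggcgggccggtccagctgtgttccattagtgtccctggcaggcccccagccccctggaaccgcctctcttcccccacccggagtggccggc
COL10A1: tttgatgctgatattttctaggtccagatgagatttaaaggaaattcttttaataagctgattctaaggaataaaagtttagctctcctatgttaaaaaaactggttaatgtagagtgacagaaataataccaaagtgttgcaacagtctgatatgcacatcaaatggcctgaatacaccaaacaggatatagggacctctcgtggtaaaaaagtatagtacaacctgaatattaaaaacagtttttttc
COL5A1: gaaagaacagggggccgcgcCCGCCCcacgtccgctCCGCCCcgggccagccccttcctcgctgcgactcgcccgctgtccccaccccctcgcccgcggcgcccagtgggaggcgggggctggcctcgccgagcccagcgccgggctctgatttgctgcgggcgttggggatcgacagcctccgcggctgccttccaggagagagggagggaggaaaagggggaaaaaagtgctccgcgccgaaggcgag

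A peak lay over the COL4A1-COL4A2, COL4A4-COL4A3, COL13A1 and COL12A1 stretches in 8 of 8 lists. It reached into the COL7A1 stretch in 3 lists only, since in the other 5 lists the peak within 1 kb of that start ended outside these 250 bases. The COL4A1-COL4A2 stretch held 20 CpG in 126 bases, with 1 CCAAT and 1 GGGCGG. Over windows of the same length upstream of all 35114 promoters used, the median was 6 CpG, 21.1% held CCAAT and 34.6% held GGGCGG. The COL4A4-COL4A3 stretch held 11 CpG in 135 bases and 2 GGGCGG, where 35.5% of windows of that length held at least 1. Of the 250-base stretches, CpG numbered 16 at COL13A1, 21 at COL12A1 and 11 at COL7A1, and 16 at COL16A1, 1 at COL10A1 and 29 at COL5A1, against a median of 11 over all promoters. Among the 250-base windows of all promoters, 10.7% held TATAAA, 32.0% CCAAT, 42.6% GGGCGG and 6.57% TGANTCA. CpG-rich stretches thus occurred with a peak in every list (COL12A1) and with a peak in none (COL5A1). Sequences were found for 30 of the 42 members (71.4%), under the 80% set for a check over the whole list, so such a check is void. The members not in the promoter table are COL1A1, COL1A2, COL2A1, COL3A1, COL5A2, COL6A1, COL6A5, COL8A1, COL9A3, COL14A1, COL20A1 and COL22A1.

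The lists held 149172 to 250548 autosomal peaks, with a median width of 269 to 409 bp. Read depth is not given, so an absent call is not an absence of open DNA. All 4 lists of the 3MB-PP1 group had narrower peaks (median 291 ± 24.9 bp, SD, n = 4) than all 4 of the DMSO group (390 ± 25.0 bp). In base pairs under peaks, libraries 1 and 3 of both groups all lay above libraries 2 and 4 in 6.78% of genes tested. The reverse held in 0.904%. In median width the odd-numbered libraries were the wider in DMSO and the narrower in 3MB-PP1. Values within the odd-numbered and within the even-numbered libraries are given where they bear on a result. Of 9 genes typical of retinal pigment epithelium, PMEL, MITF and OTX2 had a peak within 1 kb of a gene end in all 8 lists, and RPE65, a visual-cycle enzyme of that tissue, had one in none. Of 5 mesenchymal markers, VIM, CDH2, FN1 and ZEB1 had one in all 8 lists and S100A4 in none. Of 5 epithelial markers, EPCAM, KRT8 and KRT18 had one in all 8 lists. Of 5 blood markers, CD3E and SPI1 had one in all 8 lists and PTPRC, the pan-leukocyte marker, had one in none.

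Peaks at the ends of collagen genes were called in all 8 lists for few members. A gene-end peak here is one that reaches within 1 kb of either outer annotated end of the gene. 12 of the 42 genes (28.6%) had such a peak in every list, 25 had one in 1 to 7 lists, and 5 (11.9%) had one in no list. Over all autosomal protein-coding genes, 61.0% had one in every list and 7.996% in none. Collagen genes are long, with a median of 133 kb against 24.5 kb over all genes, and among 5915 genes of 39.2 to 205 kb, the middle span of collagen gene lengths, 70.3% had a gene-end peak in every list. The 30 members with a start site in the promoter table gave a similar count when only peaks within 1 kb of that site were used, 9 of 30 (30%) in every list against 61.0% of 15100 genes.

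**Figure D1:**
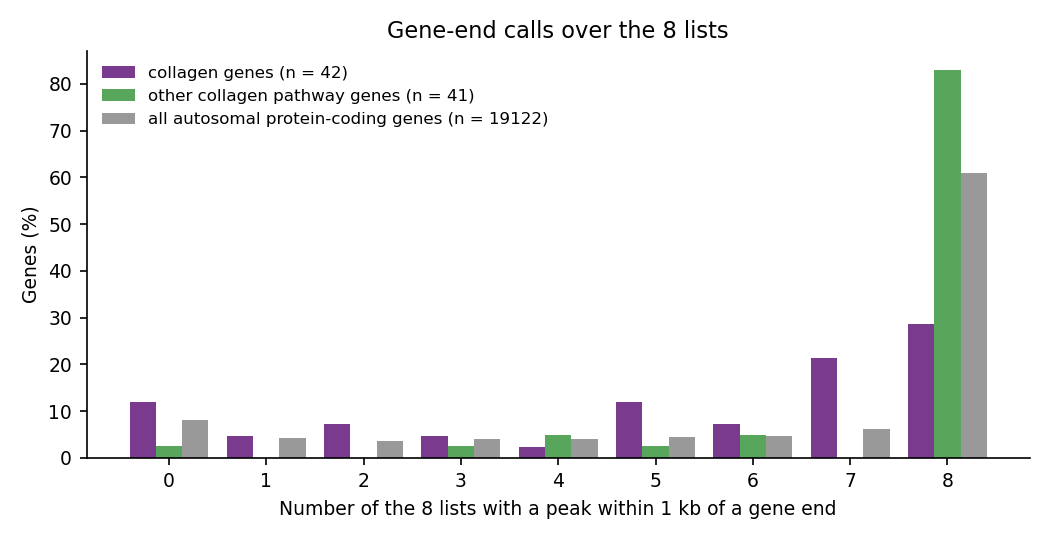
Share of genes (%, vertical axis) by the number of the 8 peak lists with a peak within 1 kb of a gene end (horizontal axis), for 42 collagen genes, 41 other genes of the collagen pathway and 19122 autosomal protein-coding genes. At 8 lists the collagen bar stands at 28.6%, below the 82.9% of the other pathway genes and the 61.0% of all genes.

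Genes that make, process, cross-link and bind collagen had gene-end peaks in every list more often than not. Of 41 such genes, 34 (82.9%) had a gene-end peak in all 8 lists and DDR1, a collagen-binding receptor kinase, had one in none. By role, this was 15 of 16 genes for synthesis and folding, 7 of 8 for propeptide removal, 4 of 5 for crosslinking, 6 of 7 for receptors and 2 of 5 for breakdown. DDR1 had peaks inside the gene, over 3138 ± 60.9 bp in DMSO and 3391 ± 349 bp in 3MB-PP1 (SD, n = 4). The prolyl hydroxylase subunits P4HA1 and P4HB had mean pileup percentiles of 99.9 and 99.97 over the 8 lists. SERPINH1, the collagen chaperone, stood at 97.0 and LOX, which cross-links collagen, at 95.8. A pileup percentile ranks the height of a peak within its own list, from 0 to 100, because the heights carry no stated scaling between libraries. Where a gene had several gene-end peaks in a list, the highest-ranking one was used, whichever end it lay at. The exceptions among synthesis genes and crosslinkers were P3H2, a prolyl 3-hydroxylase, with a gene-end peak in 3 lists, and LOXL4 with one in 5.

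By collagen class, the 4 autosomal type IV genes stood alone in having a gene-end peak in all 8 lists for every member. This held for 3 of 11 fibrillar genes (COL1A1, COL5A2 and COL11A1), 1 of 3 short-chain network genes (COL8A1) and 2 of 10 FACIT genes (COL12A1 and COL19A1). It held for COL13A1 of the 4 transmembrane collagens and COL7A1 of the 3 genes outside these classes. None of the 5 type VI genes and neither multiplexin, COL15A1 or COL18A1, had one in all 8 lists. No test was made of these classes, which hold 2 to 11 genes each and whose type IV members share their peaks. The 5 genes with no gene-end peak in any list were COL3A1, COL6A5, COL10A1, COL16A1 and COL28A1.

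**Figure D2:**
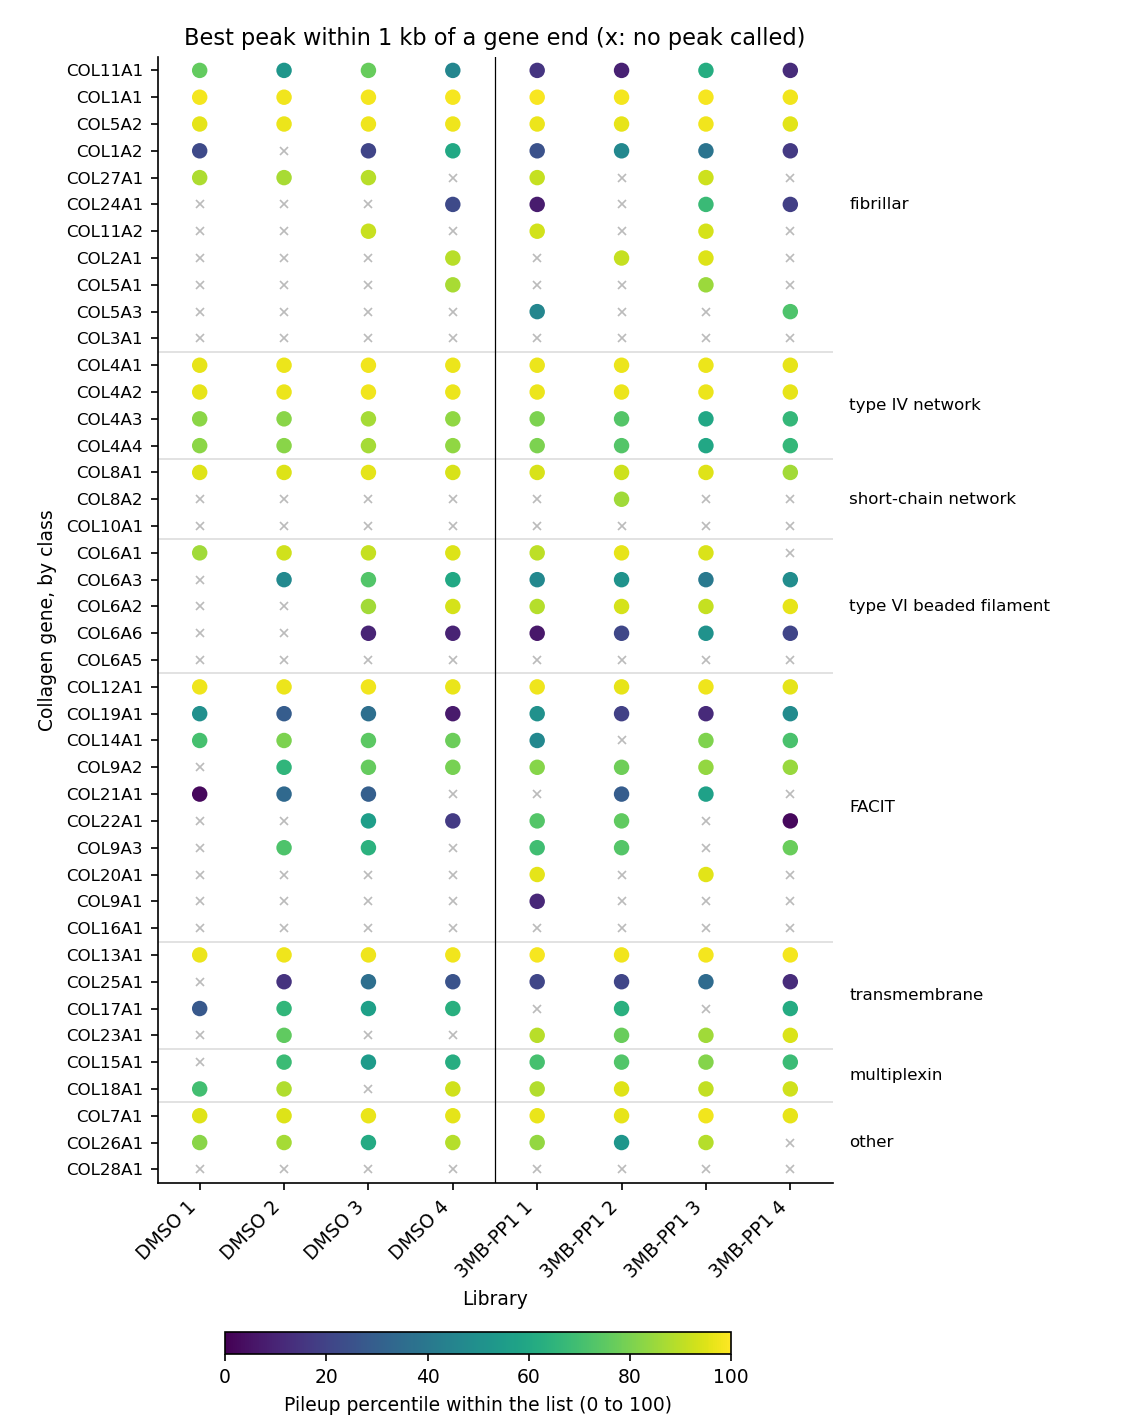
Best peak within 1 kb of a gene end for each of the 42 collagen genes (rows, by class) in each library (columns), coloured by its pileup percentile within the list from 0 to 100, with a cross where no peak was called. Yellow runs across all 8 columns mark genes such as COL1A1, COL5A2, COL4A1 and COL13A1, and COL23A1 has a call in 1 DMSO and 4 3MB-PP1 libraries.

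COL1A1, the alpha 1 chain of type I collagen at chr17:50184101-50201631, had the highest mean gene-end percentile of the 12 members called in all 8 lists. Its pileup percentile was 98.1, 98.0, 98.3 and 98.4 in DMSO libraries 1 to 4 and 98.9, 98.2, 98.5 and 97.7 in 3MB-PP1 libraries 1 to 4. The peak lay at the upper-coordinate end, chr17:50199288-50201940 over all lists, and was 2524 ± 110 bp wide in DMSO and 2379 ± 199 bp in 3MB-PP1 (SD, n = 4 each). The groups overlapped in both rank and width. COL1A2, which codes for the partner chain of the same protein at chr7:94394895-94431227, had a gene-end peak in 7 lists and at lower ranks. Its percentile was 22.4, 20.5 and 59.95 in DMSO libraries 1, 3 and 4, with no call in library 2, and 25.3, 46.5, 38.4 and 17.0 in the 3MB-PP1 libraries. The ranges of the COL1A1 and COL1A2 percentiles over the libraries did not meet.

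Among the other fibrillar genes, COL5A2 (chr2:189031898-189441111), a chain of the type V collagen that regulates fibre diameter, had percentiles of 95.9, 97.1, 97.5 and 97.4 in DMSO and 97.0, 96.4, 98.0 and 95.6 in 3MB-PP1. These overlapped. The window at that end is shared with WDR75, whose annotated end lies at 189441474, so the peak cannot be given to one gene. The -log10 q of this peak, the authors' value, was 10.5 to 27.6. COL5A2 and COL12A1 were the 2 members with a gene-end peak of -log10 q at or above 5 in every list. This was 4.76% of the members, against 29.4% of all genes. COL5A2 is not in the promoter table, so its start site is not placed here. Its 2 body regions called in all 8 lists ranked lower. At chr2:189178635-189180827 the mean percentile was 79.7 ± 7.99 in DMSO and 55.3 ± 5.58 in 3MB-PP1 (SD, n = 4). At chr2:189284381-189286643 it was 55.1 ± 19.9 and 35.8 ± 9.47. These regions were not tested. COL5A1 (chr9:134641803-134844843), the partner chain, had a gene-end peak in 2 lists only, at the upper-coordinate end, with percentiles of 87.1 in DMSO library 4 and 84.8 in 3MB-PP1 library 3. Its start lies at the lower-coordinate end, where no list had a call. COL3A1 (chr2:188974373-189012746), the type III collagen chain of distensible tissue, had none.

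COL11A1, a minor fibrillar chain of cartilage at chr1:102876473-103108522, was called in all 8 lists at ranks that varied. Its percentile was 76.0, 52.6, 76.7 and 46.0 in DMSO and 15.4, 9.24, 61.9 and 12.4 in 3MB-PP1. The 3MB-PP1 libraries 1, 2 and 4 lay below every DMSO library, and library 3 lay among them. These are peaks that reach the 1 kb window, and in some libraries the same open region was called in pieces of which others lay outside it. Over the whole region, chr1:103106471-103109433, the highest-ranking piece had a mean percentile of 62.8 ± 15.9 in DMSO and 50.2 ± 27.1 in 3MB-PP1 (SD, n = 4), a difference within the spread between replicates. For the peaks within the window, in a limma fit over 11665 genes with a gene-end peak in all 8 lists, the logit of this percentile differed by -1.94 (Benjamini-Hochberg adjusted p = 0.351 over all genes), which did not pass the threshold of 0.05. Among the odd-numbered libraries alone the difference was -1.78 (limma, adjusted p = 0.016), with 3.2% of all genes called in that fit of 2 libraries against 2.

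The type IV genes lie in head-to-head pairs and each pair shared 1 gene-end peak. COL4A1 (chr13:110148963-110307157) and COL4A2 (chr13:110307284-110513209), the chains of the common basement membrane network, share a peak over chr13:110306113-110309001. Its percentile was 96.3, 97.1, 97.7 and 97.1 in DMSO and 96.9, 96.9, 97.1 and 96.3 in 3MB-PP1, so the groups overlapped. Its width was 2456 ± 338 bp in DMSO and 1885 ± 154 bp in 3MB-PP1 (SD, n = 4). COL4A4 (chr2:226967360-227164488) and COL4A3 (chr2:227164624-227314792), chains of the network best known from the kidney glomerulus, share a peak over chr2:227163383-227165282. Its percentile was 82.6, 82.4, 86.4 and 83.3 in DMSO and 80.2, 73.4, 59.6 and 66.4 in 3MB-PP1. All 4 3MB-PP1 values lay below all 4 DMSO values. The logit difference was -0.77 (limma, adjusted p = 0.346), which did not pass. Members with lower percentiles in all 3MB-PP1 libraries numbered 2 of 12, these genes with their 1 peak, and 1.43% of all genes met that rule.

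**Figure D3:**
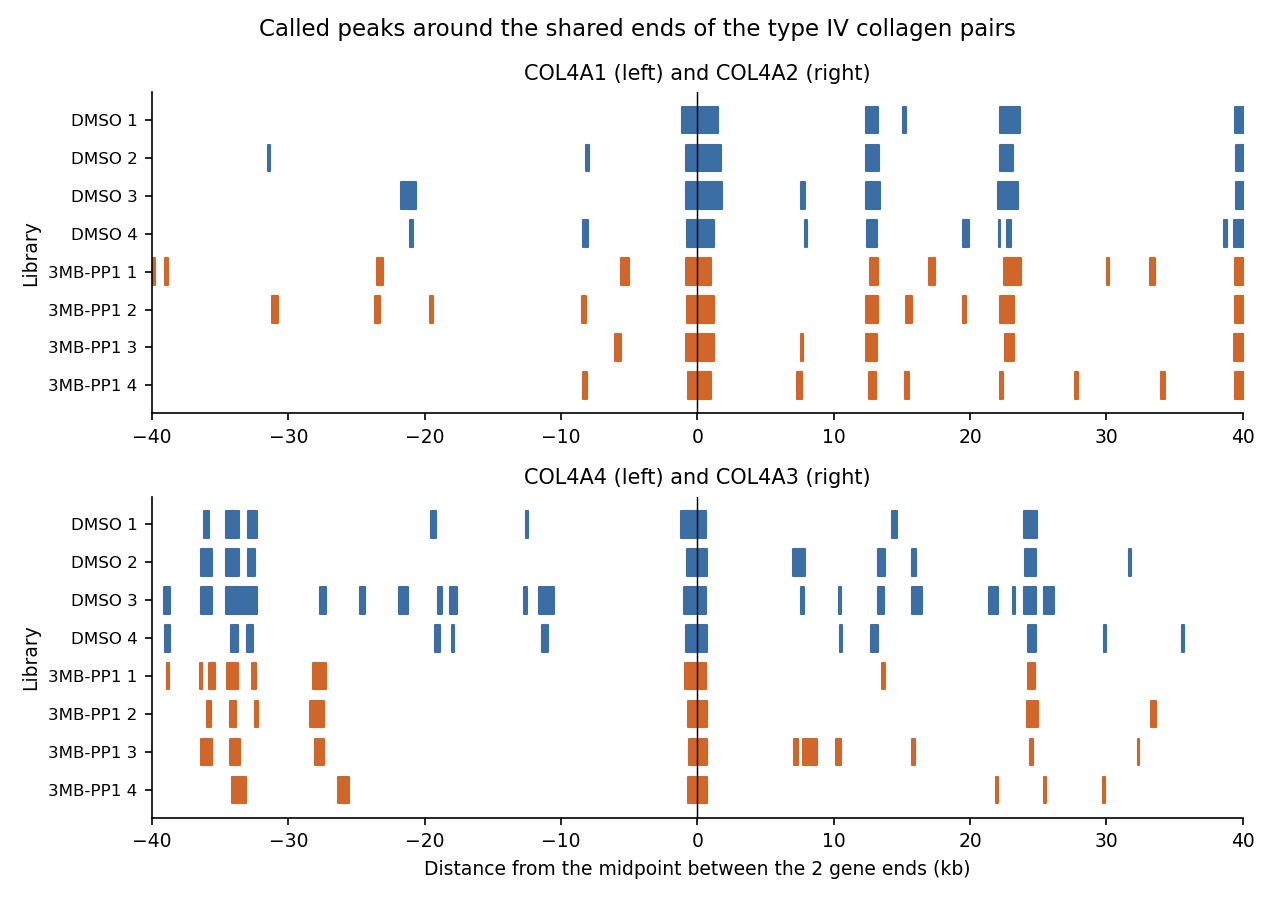
Called peaks in each library (rows; DMSO blue, 3MB-PP1 orange) by distance in kb from the midpoint between the facing ends of COL4A1 and COL4A2 (upper panel) and of COL4A4 and COL4A3 (lower panel). Every library has a peak across the midpoint of both pairs; farther into the genes, fewer positions are called in all 8.

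Type VI genes, which code for the chains of beaded microfilaments, had gene-end peaks in some lists each. COL6A1 (chr21:45981770-46005048) had percentiles of 85.7, 92.8, 91.1 and 94.8 in DMSO and 90.2, 96.1 and 94.3 in 3MB-PP1 libraries 1 to 3, with no call in library 4. COL6A2 (chr21:46098112-46132848) had no call in DMSO libraries 1 and 2, and 86.0 and 93.5 in DMSO libraries 3 and 4. In 3MB-PP1 it stood at 88.9, 93.7, 91.3 and 96.2. COL6A3 was called in 7 lists, at one end or the other, at percentiles of 40.5 to 72.7, and COL6A6 in 6 lists at 6.55 to 50.5. COL6A5 had no gene-end peak.

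Basement membrane and surface collagens outside the type IV family differed among themselves. COL8A1, a short-chain network collagen at chr3:99638594-99799217, had percentiles of 95.05, 94.6, 95.8 and 93.9 in DMSO and 94.1, 92.5, 95.0 and 86.3 in 3MB-PP1, which overlapped. Its partner COL8A2 had a gene-end peak in 1 list. COL18A1 (chr21:45405165-45513720), the multiplexin from which endostatin is cut, had start-site percentiles of 88.0 and 92.7 in DMSO libraries 2 and 4, with no call there in libraries 1 and 3. In 3MB-PP1 it stood at 88.6, 95.0, 90.7 and 92.8. DMSO library 1 had a gene-end peak at the other end only, inside SLC19A1, at 69.6. COL15A1, the other multiplexin, was called in 7 lists at 54.3 to 81.4, the highest of these at the end away from its start site.

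COL13A1, a transmembrane collagen of cell adhesions at chr10:69801906-69959144, had percentiles of 97.2, 97.64, 97.58 and 97.96 in DMSO and 98.4, 97.98, 98.3 and 98.2 in 3MB-PP1. All 4 3MB-PP1 values lay above all 4 DMSO values, by 0.623 points on average, though the nearest libraries almost met. The logit difference was 0.31 (limma, adjusted p = 0.551), and 4.1% of all genes were higher in all 3MB-PP1 libraries. COL12A1, a FACIT collagen at chr6:75084326-75206053, had percentiles of 97.5, 97.1, 97.8 and 96.8 in DMSO and 97.3, 96.3, 97.4 and 95.8 in 3MB-PP1. COL7A1 (chr3:48564073-48595329), which forms the anchoring fibrils of skin, stood at 93.6, 94.8, 95.5 and 96.0 in DMSO and 95.9, 96.1, 97.8 and 96.5 in 3MB-PP1 at its start site. In libraries 1 and 3 of both groups its best gene-end peak was at the other end, at 94.9 and 96.7 in DMSO and 96.7 and 98.0 in 3MB-PP1. In both genes the treatment groups overlapped. COL19A1, a FACIT collagen, was called in all 8 lists at 6.82 to 50.2.

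Over the 12 members called in every list, the median percentile was 96.2 ± 0.71 in DMSO and 96.5 ± 0.64 in 3MB-PP1 (SD, n = 4), a difference within the spread between replicates. In the limma fit of the logit percentile, 0 of 12 members passed, as did 0.00857% of all genes, and 3 of 12 had an unadjusted p under 0.05, against 9.72%. The difference was below 0 for 8 of 12 members, against 44.7% of all genes. The type IV pairs share their peaks, so these 12 genes have 10 distinct peaks, of which 2 had an unadjusted p under 0.05 and 6 a difference below 0. The medians over all genes called in every list were 96.1 ± 0.46 and 96.3 ± 0.97. At a -log10 q of at least 5, a gene-end peak was present in 7.25 ± 1.26 members per DMSO list and 4.5 ± 2.08 per 3MB-PP1 list. Over all genes the same counts were 8897 ± 1156 and 7304 ± 1169. The ranges were 6 to 9 and 2 to 7 for the members, so the groups overlapped.

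Without a threshold on q, more members had a gene-end peak in the 3MB-PP1 lists. The count of 42 was 20, 25, 28 and 28 in DMSO libraries 1 to 4 and 32, 29, 31 and 27 in 3MB-PP1 libraries 1 to 4. The groups overlapped, with 3MB-PP1 library 4 below 2 DMSO libraries. The mean difference was 4.5 genes, made up of 7.5 within the odd-numbered and 1.5 within the even-numbered libraries. Over all genes, 76.7% ± 2.29 had a gene-end peak in DMSO and 78.4% ± 3.47 in 3MB-PP1 (SD, n = 4), with the 3MB-PP1 lists also holding more peaks (208539 against 175076 on average).

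COL23A1, a transmembrane collagen at chr5:178237618-178590393, was the member with a gene-end peak in 4 of 4 3MB-PP1 lists and at most 1 DMSO list. Its percentile was 75.7 in DMSO library 2, with no call in DMSO libraries 1, 3 and 4, and 89.1, 77.2, 85.7 and 94.2 in 3MB-PP1. The last of these is a peak at the end away from the start site, inside the lncRNA gene LOC112267937, and the start-site peak of that library stood at 80.8. All the other values are from the start site. COL23A1 was 1 of 42 members, and 0.628% of all genes met this rule. No member met the rule in the other direction, which 0.319% of all genes met. The best gene-end peak of COL23A1 in each of these lists had a -log10 q of 1.15 to 2.36.

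Inside the genes, nearly all members carried peaks. A body peak is one in the gene that touches neither gene-end window. Members with a body peak numbered 37, 37, 38 and 36 in the DMSO lists and 38, 38, 41 and 37 in the 3MB-PP1 lists. On average these were 88.1% of members in DMSO and 91.7% in 3MB-PP1. Over all genes, whose median length is shorter, the shares were 57.7% ± 3.34 and 63.1% ± 3.57 (SD, n = 4). Per 100 kb of gene, the median member had 8.10 body peaks per list. The median was 4.39 over all genes and 6.36 over genes of the same length span. Pooled over the length of all members, there were 6.28 ± 0.94 per 100 kb in DMSO and 7.06 ± 1.56 in 3MB-PP1 (SD, n = 4). The same over all genes were 5.82 ± 0.93 and 7.16 ± 1.17, so the pooled densities were close. The densest members were COL17A1, a hemidesmosome collagen, with 17.6, COL8A2 with 14.6 and COL15A1 with 14.1. The sparsest were COL1A1 with 0.713, COL11A1 with 0.916 and COL6A5 with 1.08. COL1A1 thus had the highest mean gene-end percentile and the fewest body peaks per 100 kb, with 1 body peak in the 8 lists together.

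Body peaks of the densest genes were counted in each library. COL17A1 (chr10:104031286-104085880) had 6, 7, 9 and 9 in DMSO libraries 1 to 4 and 16, 10, 14 and 6 in 3MB-PP1 libraries 1 to 4. COL15A1 (chr9:98943907-99070787) had 17, 14, 20 and 21 in DMSO and 21, 17, 20 and 13 in 3MB-PP1, and COL8A2 (chr1:36095239-36125222) had 3 to 6 in DMSO and 3 to 5 in 3MB-PP1. The groups overlapped in these 3 genes. COL23A1, the member with most body peaks in all, had 34, 41, 47 and 49 in DMSO and 52, 43, 58 and 36 in 3MB-PP1. The longest member, COL25A1, a transmembrane collagen of 494 kb, had 2.96 per 100 kb. The shortest, COL9A2, a FACIT collagen of 16.8 kb, had 8.93.

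The 5 genes with no gene-end peak all had body peaks in some lists. COL28A1 (chr7:7338194-7543870) had 6, 9, 11 and 13 body peaks in DMSO and 7, 15, 14 and 15 in 3MB-PP1. COL16A1, a FACIT collagen at chr1:31652263-31704017, had 6, 5, 8 and 6 in DMSO and 10, 1, 9 and 7 in 3MB-PP1. In these 2 genes every list had a body peak, and peaks covered a mean of 2.36% of COL28A1 and 4.3% of COL16A1 with their flanks. COL10A1, the short-chain collagen of growth plate cartilage at chr6:116118909-116217144, had 0, 0, 1 and 1 in DMSO and 2, 1, 4 and 0 in 3MB-PP1. This gene lies inside the span of NT5DC1. COL6A5 (chr3:130345672-130484846) had 1, 1, 1 and 0 in DMSO and 4, 3, 2 and 0 in 3MB-PP1. COL3A1 had 1, 1, 2 and 1 in DMSO and 0, 0, 2 and 0 in 3MB-PP1, and its lower-coordinate end lies in the lncRNA gene LOC105373791.

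Few of these body peaks recurred in every library. Merged over the 8 lists, the members held 1380 body regions, of which 738 were called in 1 list and 55 (3.99%) in all 8, against 4.49% over all genes. At gene ends, 10 of 66 regions (15.2%) were called in all 8 lists, against 37.8% over all genes. COL23A1 held 6 body regions called in every list, COL4A2 and COL15A1 held 5 each, and COL28A1, which had no gene-end peak, held 4. The highest-ranking was in COL15A1, chr9:98988997-98990744, 46.0 kb from the start site, with a mean percentile of 97.1. Its -log10 q was 5.15 to 18.1, and COL15A1 was the member with a body peak at or above 5 in every list. It made up 2.38% of the members, against 4.54% of all genes with such a body peak. Next were COL18A1, chr21:45427013-45428329, 22.5 kb from its start (96.4), and COL13A1, chr10:69863027-69865792, 62.5 kb from its start (95.97). COL5A1, with no peak at its start site in any list, had a body region in every list 4.24 kb into the gene, chr9:134644958-134647121, with a mean percentile of 94.5.

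Body regions found in 4 of 4 lists of a group and none of the other numbered 2 for DMSO and 0 for 3MB-PP1, of 1380 regions. Over all genes these shares were 0.116% and 0.144% of body regions, and the members' share for DMSO was 0.145%. At gene ends no region of the members met either rule, against 0.0912% of all gene-end regions for DMSO and 0.106% for 3MB-PP1. The body regions were chr5:178557090-178558227 in COL23A1 and chr7:101527816-101528602 in COL26A1. In DMSO their mean percentiles were 73.0 ± 11.6 and 57.5 ± 26.4 (SD, n = 4).

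No collagen gene passed the test for a change in covered length with Plk1 inhibition. Covered length is the number of base pairs of the gene and 1 kb either side that lie under peaks, compared on a log2(bp + 200) scale as 3MB-PP1 minus DMSO by limma over 16043 genes. 0 of 41 members tested had a Benjamini-Hochberg adjusted p of 0.05 or less, as did 0% of all genes. At an unadjusted p under 0.05 there were 8 of 41 members and 13.8% of all genes. The difference was below 0 for 25 of 41 members and 70.1% of all genes, and its median was -0.15 over the members and -0.14 over all genes. In 3 of 41 members every 3MB-PP1 library was lower than every DMSO library, a rule met by 7.02% of all genes, and in none was every one higher, met by 1.17%. In bulk libraries, DNA open in fewer cells and DNA less open in each cell cannot be told apart. COL6A5, with a mean under the 500 bp needed, was not tested. COL3A1 met that minimum only through its DMSO values, and COL1A2 and COL10A1 only through their 3MB-PP1 values. Over the 38 members with a mean of at least 500 bp in both groups, 24 differences were below 0, 7 had an unadjusted p under 0.05 and the median was -0.17. With 4 libraries a group the test recovered 35.5% of simulated differences of -1 on this scale and 75.5% of those of -2. In that simulation 200 genes were shifted and the rest had no difference, while most genes lay below 0 here. These shares therefore need not hold for the test as run.

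The 3 genes whose groups did not overlap were COL4A3, COL5A2 and COL13A1. COL4A3 had 9563, 13595, 17799 and 11248 bp under peaks in DMSO libraries 1 to 4 and 6500, 6924, 6416 and 5602 bp in 3MB-PP1 libraries 1 to 4. The difference was -0.98 ± 0.20 (log2, SE), with an adjusted p of 0.188 by limma. It was -0.99 within the odd-numbered and -0.97 within the even-numbered libraries. COL5A2 had 14938, 9531, 14485 and 8033 bp in DMSO and 6040, 5346, 6955 and 4677 bp in 3MB-PP1, a difference of -0.97 ± 0.23 (limma, adjusted p = 0.213). COL13A1 had 10834, 10604, 14063 and 11040 bp in DMSO and 10057, 7636, 10081 and 8268 bp in 3MB-PP1, a difference of -0.36 ± 0.15 (limma, adjusted p = 0.352). In COL4A3 and COL5A2 the lowest DMSO library exceeded the highest 3MB-PP1 library by over 1 kb.

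**Figure D4:**
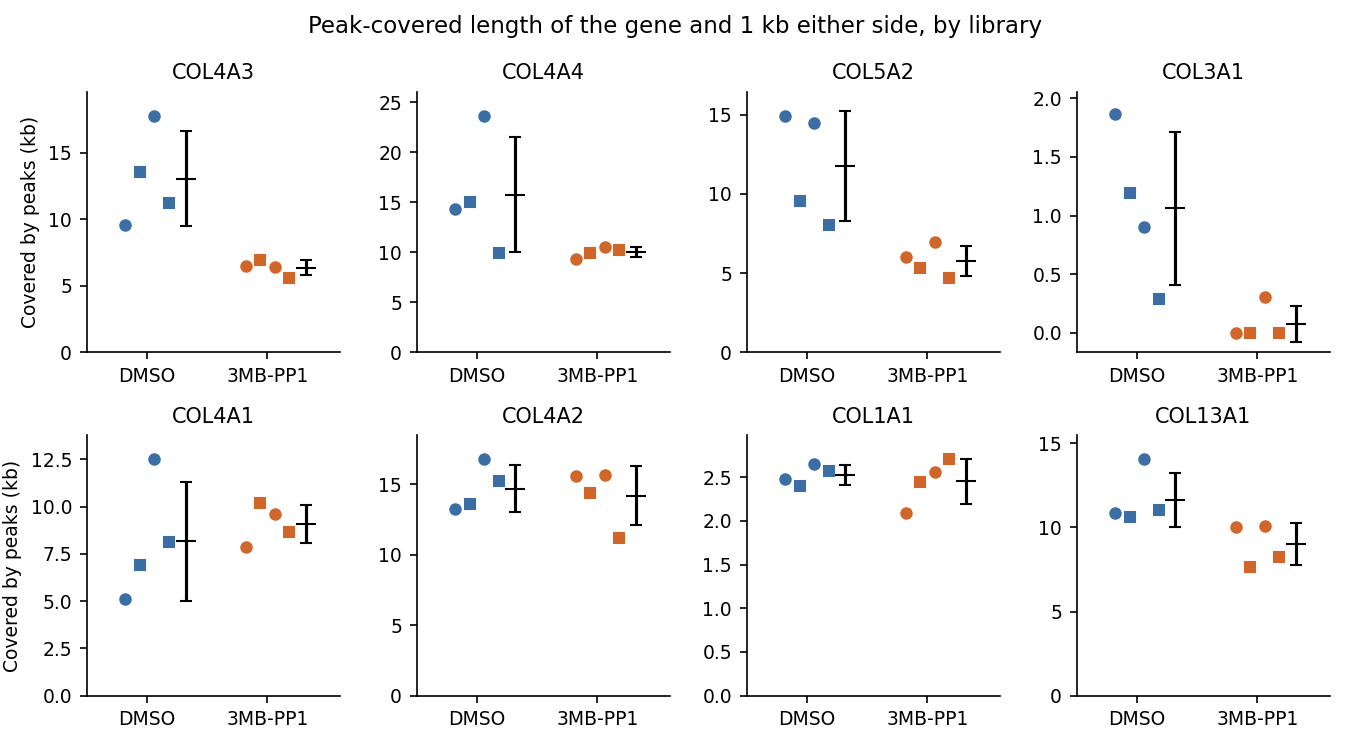
Peak-covered length (kb) of the gene and 1 kb either side for 8 collagen genes in each library (circles for libraries 1 and 3, squares for 2 and 4), with the mean and SD of 4 libraries beside each group. COL4A3, COL5A2 and COL13A1 show no overlap of the groups, and COL4A1, COL4A2 and COL1A1 overlap.

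The other collagen genes of chromosome 2 had groups that overlapped. COL4A4 had 14270, 15053, 23644 and 9937 bp in DMSO and 9302, 9934, 10542 and 10175 bp in 3MB-PP1, a difference of -0.58 ± 0.23 (limma, adjusted p = 0.341), with DMSO library 4 among the 3MB-PP1 values. COL3A1 had 1867, 1189, 899 and 289 bp in DMSO and 0, 0, 303 and 0 bp in 3MB-PP1. All its peaks lay in the gene body, and its difference of -2.15 ± 0.72 had an adjusted p of 0.288 by limma. COL6A3, also on chromosome 2, went the other way at 0.24 ± 0.29 (limma, adjusted p = 0.742). Genes of chromosome 2 had a median difference of -0.18, and 122 of 1115 were lower in every 3MB-PP1 library, against -0.13 and 1004 of 14928 on the other autosomes. The part of the chromosome in the values of COL4A3 and COL5A2 was not tested.

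Of the remaining named genes, none had groups that lay apart in covered length. COL1A1 had 2481, 2397, 2653 and 2565 bp in DMSO and 2095, 2450, 2557 and 2706 bp in 3MB-PP1, a difference of -0.04 ± 0.12 (log2, SE). COL4A1 had 5115, 6899, 12517 and 8117 bp in DMSO and 7888, 10184, 9606 and 8639 bp in 3MB-PP1, a difference of 0.22 ± 0.25. COL4A2 had 13230, 13575, 16782 and 15207 bp in DMSO and 15563, 14391, 15629 and 11176 bp in 3MB-PP1, a difference of -0.06 ± 0.15. None of the 4 type IV genes passed the test, and a difference between the pairs was not tested. COL5A1 had 7594, 4133, 12032 and 9683 bp in DMSO and 5585, 6546, 8710 and 5228 bp in 3MB-PP1. COL18A1 had 6263, 2317, 4566 and 4719 bp in DMSO and 5698, 4550, 4857 and 3473 bp in 3MB-PP1. In both genes every 3MB-PP1 value lay within the DMSO range.

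The type I and VI genes with little covered length varied by library. COL1A2 had 361, 365, 26 and 261 bp in DMSO and 134, 459, 2205 and 427 bp in 3MB-PP1, so library 3 set the 3MB-PP1 mean. COL6A1 had 1129, 294, 1249 and 549 bp in DMSO and 1030, 766, 858 and 254 bp in 3MB-PP1. COL6A2 had 638, 599, 1202 and 3068 bp in DMSO and 1561, 2148, 2909 and 1278 bp in 3MB-PP1. The groups overlapped in all 3 genes. COL6A6 had the largest positive difference of any member, 1.08 ± 0.40 (limma, adjusted p = 0.314), from 1684, 692, 1582 and 3678 bp in DMSO to 2861, 3509, 5452 and 3386 bp in 3MB-PP1. COL21A1, a FACIT collagen, differed by -1.31 ± 0.56 (limma, adjusted p = 0.351) and COL15A1 by -0.53 ± 0.17 (limma, adjusted p = 0.277).

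The other genes that stood out by rank or density had overlapping groups in covered length. COL12A1 had 2398, 2593, 2399 and 2234 bp in DMSO and 2708, 2263, 2691 and 2184 bp in 3MB-PP1. COL8A1 had 5655, 3373, 2707 and 2129 bp in DMSO and 3259, 1420, 3834 and 1552 bp in 3MB-PP1. COL7A1 had 2066, 705, 3132 and 432 bp in DMSO and 1650, 959, 1420 and 449 bp in 3MB-PP1. In COL7A1 the odd-numbered libraries of both groups were the high ones. COL23A1 had 15283, 20228, 26093 and 22997 bp in DMSO and 17690, 18372, 22963 and 14869 bp in 3MB-PP1. Its gene-end calls in 3MB-PP1 thus went with no greater covered length, the difference being -0.18 ± 0.19. COL16A1 had 3089, 2288, 3958 and 2458 bp in DMSO and 2972, 344, 1767 and 1609 bp in 3MB-PP1, a difference of -0.97 ± 0.47 (limma, adjusted p = 0.397).

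**Figure D5:**
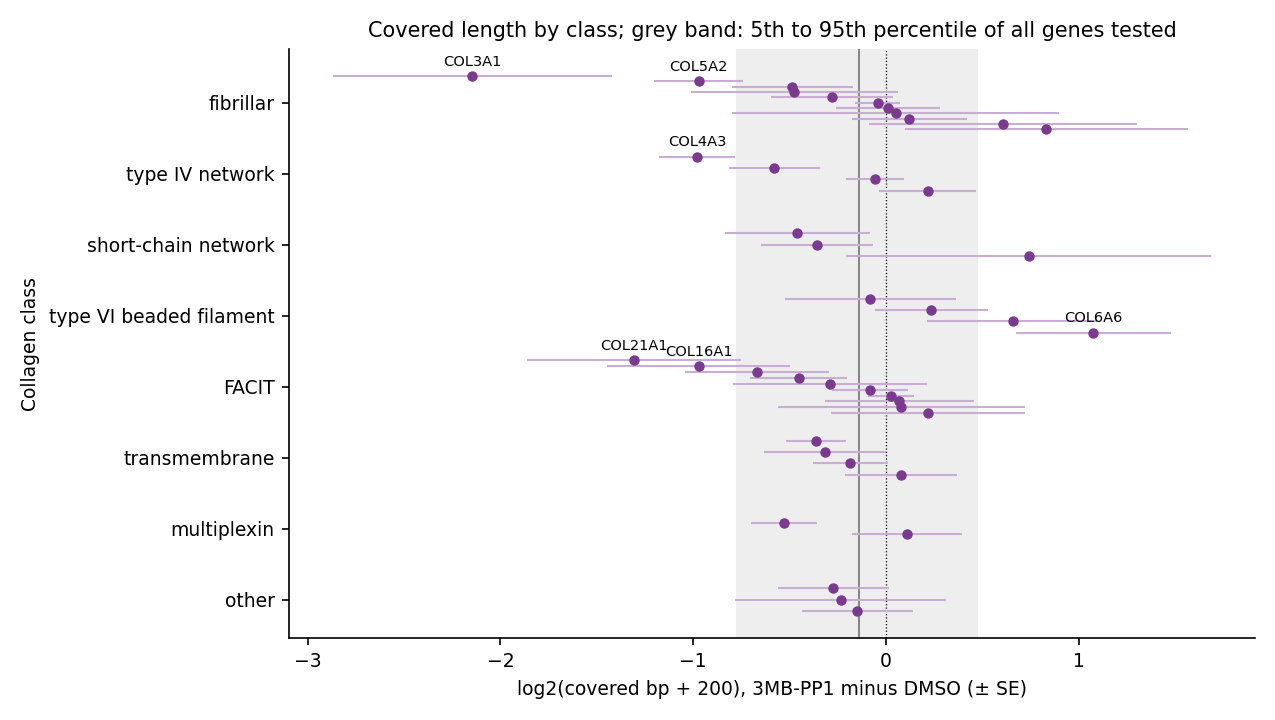
Difference in log2(covered bp + 200), 3MB-PP1 minus DMSO, for the 41 collagen genes tested, by class (points with SE bars), beside the median (grey line, -0.14) and the 5th to 95th percentile of 16043 genes (grey band, -0.77 to 0.47). COL3A1, COL21A1, COL4A3, COL5A2 and COL16A1 lie below the band and 5 members lie above it; COL3A1, COL1A2 and COL10A1 met the 500 bp minimum through 1 group only.

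By class, the median log2 difference in covered length was -0.04 over 11 fibrillar genes, -0.32 over 4 type IV genes, 0.45 over 4 type VI genes and -0.19 over 10 FACIT genes. It was -0.36 over 3 short-chain genes, -0.25 over 4 transmembrane genes and -0.21 over the multiplexins. The signs were mixed in most classes: 6 of 11 fibrillar, 3 of 4 type IV, 1 of 4 type VI and 6 of 10 FACIT genes were below 0. Over the 42 members together, 228 ± 38.8 kb was covered in DMSO and 189 ± 32.8 kb in 3MB-PP1 (SD, n = 4). The whole autosomal lists covered 97.2 ± 12.3 Mb and 86.1 ± 9.51 Mb.

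Peaks in collagen genes were narrower in the 3MB-PP1 lists, as were peaks in most genes. The mean peak width of a gene could be tested for 38 members with a peak in every list. The median over members was 517 ± 55.01 bp in DMSO and 376 ± 27.0 bp in 3MB-PP1 (SD, n = 4). Of the 38, 36 had a narrower mean in 3MB-PP1, against 91.1% of all genes, and in 8 every 3MB-PP1 library was lower than every DMSO library, against 19.4%. In none was every 3MB-PP1 library higher, against 0.0591% of all genes. The median log2 difference was -0.49 over members and -0.42 over 15241 genes. No member passed the test (limma, lowest adjusted p 0.0592 for COL5A1), where 1.73% of all genes did, and 16 of 38 members had an unadjusted p under 0.05, against 31.5%. COL5A1 had mean widths of 690, 590, 752 and 484 bp in DMSO and 254, 327, 323 and 436 bp in 3MB-PP1. The 8 members without overlap were COL16A1, COL5A1, COL5A2, COL15A1, COL26A1, COL28A1, COL23A1 and COL4A3. The test recovered 4.5% of simulated width differences of -1 and 81% of those of -2. In that simulation 200 genes were shifted and the rest had no difference. Most genes were narrower in the 3MB-PP1 lists, so these shares need not hold for the test as run.

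One library bore on the width result. DMSO library 4 had the narrowest collagen peaks of its group, a median of 458 bp over genes, against 483 to 576 bp in the other DMSO libraries. Without it, 9 members passed (limma, adjusted p of 0.0277 for COL5A1), and 13.1% of all genes did. They were COL16A1, COL13A1, COL17A1, COL5A2, COL4A3, COL7A1, COL28A1, COL15A1 and COL5A1, all narrower in 3MB-PP1. With the replicate number as a block, no member passed and the calls over all genes went from 263 to 12.

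Of the other pathway genes, none of 39 tested for covered length passed, beside 0% of all genes. For width, 1 of 38 passed, beside 1.73% of all genes. PCOLCE2, an enhancer of propeptide cleavage, had a mean width of 845 ± 228 bp in DMSO and 368 ± 60.1 bp in 3MB-PP1 (SD, n = 4). Its log2 difference was -1.17 ± 0.23 (limma, adjusted p = 0.0451). With the replicate number as a block the adjusted p was 0.105 (limma). With each library centred on the median of all genes, PCOLCE2 had an adjusted p of 0.263 (limma). It passed in 1 of 8 fits that left out 1 library each, where the adjusted p ran from 0.0122 without DMSO library 4 to 0.119 without DMSO library 1. The medians of the log2 differences over the pathway genes were -0.17 in covered length and -0.42 in width.

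The odd- and even-numbered libraries differed in 5 members whose treatment groups overlapped. In COL27A1, COL26A1, COL7A1, COL8A2 and COL6A1, all 4 odd-numbered libraries had a greater covered length than all 4 even-numbered ones, 5 of 41 members beside 6.78% of all genes. COL27A1, a fibrillar collagen of cartilage, had 9851, 13110, 10342 and 6043 bp in the odd-numbered libraries and 3324, 4893, 4098 and 2076 bp in the even-numbered ones. The lower-coordinate end of COL7A1, near UCN2 and PFKFB4, was called in libraries 1 and 3 of both groups and in no other. No member had a greater covered length in all even-numbered libraries, which 0.904% of all genes had. In the gene-end percentile the odd-numbered libraries lay above the even-numbered ones in 1 of 12 members, COL12A1, against 13.5% of all genes. None had the reverse, which 0.609% of all genes had. What the replicate number marks is not given in the sources used here.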

How the data were processed

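One peak list per library was used, with group and replicate number from the library titles. Per the submitters' processing notes, MACS2 and DESeq2 were used with hg38; their roles and versions, the aligner and read filters are not given in the sources used here. From the values, the deposited columns are position, length, pileup, -log10 p, fold enrichment and -log10 q. The deposited pileup is a coverage signal with no stated scaling between libraries, so only its rank within a list was compared. The deposited -log10 p and -log10 q and the deposited fold enrichment, a ratio to local background, are the authors' values for each peak in its own list, where the largest q was 0.1. The deposited length is in bp and was checked against start and end. Peaks, and any shift of reads for the Tn5 cut, were made by the authors before deposit, and this sets which weak peaks are called.

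Genes, start sites and promoter stretches came from RefSeq tables (GRCh38.p14). Gene ends are the outer annotated ends, so start sites inside a gene count as body. Covered length (mean of at least 500 bp), mean peak width (a peak in all 8 lists) and the logit percentile of the best gene-end peak (one in all 8 lists) were fitted over all autosomal protein-coding genes with limma 3.58.1 (R 4.3.3), 3MB-PP1 minus DMSO, with Benjamini-Hochberg adjustment over all genes tested and a threshold of 0.05. With Python 3.11.15 (scipy 1.17.1, pandas 2.3.3 and numpy 2.4.6; figures with matplotlib 3.10.9), lists were joined to genes. An exact two-sided permutation of 4 against 4 libraries cannot give a p below 0.0286. P-values measure the spread between these libraries. Peak overlaps were checked with bedtools 2.31.1 (0 differences in 19122 genes), and the tests were tested on simulated data. As a check for duplicated lists, at most 0.0336% of peak positions were identical in any pair of lists. Peaks that overlap without identical positions are not counted in this.

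The members, gene lists, tests and alternatives were chosen with earlier results of these data known. Named with values in every library were 12 main chains, the 5 other genes with the highest mean gene-end percentile in all 8 lists, genes with no gene-end peak, genes with a gene-end peak in 4 lists of a group and at most 1 of the other, genes called by a test, and the 3 genes with most and with fewest body peaks per 100 kb. Same-numbered libraries of the groups deviated together (r of 0.24, 0.108, 0.163 and 0.216 over genes). The replicate number was therefore taken to pair them in the block alternative, while the main fits did not use this pairing. The pairing comes from the data, not the labels. Some libraries of different number correlated as much, DMSO 3 with 3MB-PP1 1 (0.18) and DMSO 2 with 3MB-PP1 4 (0.134). Alternatives were a -log10 q of at least 5, lists of equal length (149172 peaks), peaks of at least 300 bp, windows of 500 bp and 2.5 kb, an overlap of 50%, ranks by -log10 p, pseudocounts of 50 and 1000 bp, no filter, centring each library, the block, permutation, odd or even libraries alone, and leaving out each library.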

Additional observations from a re-analysis of the deposited data

Results flagged for a closer look

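In 7 of 82 groups of 4 libraries, 1 library lay far from the other 3 of its group. For independent groups of normally distributed values, chance gives about 1 in 20 at this threshold, or 4.1 groups. Some groups here hold several values of 0, and the type IV pairs share their gene-end peaks. The 4.1 is therefore only a rough guide. 4 were single high values. COL1A2, a type I collagen chain, had 2205 bp under peaks in 3MB-PP1 library 3, against 134 to 459 bp in the other 3MB-PP1 libraries. COL3A1, the type III chain, had 303 bp there and 0 bp in the others. COL11A1, a cartilage chain, had a gene-end pileup percentile of 61.9 there, against 9.24 to 15.4 in the others. COL13A1, a transmembrane collagen, had 14063 bp in DMSO library 3, against 10604 to 11040 bp. 3 were single low values. COL6A5, a type VI chain, had 0 bp in DMSO library 4, against 149 to 165 bp. COL28A1 had 2171 bp in 3MB-PP1 library 1, against 5265 to 5484 bp. COL15A1, a multiplexin, had 9610 bp in DMSO library 2, against 12377 to 12831 bp. 3MB-PP1 library 3, which held the most peaks of any list (250548), gave 3 of the 7.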

How the results depend on the processing

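No member passed the test of covered length under any alternative run. For peak width, leaving out 1 library gave 0 to 9 members, the 9 without DMSO replicate 4, and 0 under the other alternatives. For the gene-end percentile, 1 member, COL11A1, passed among the odd-numbered libraries, and leaving out 1 library gave 0. The replicate number was taken to pair the libraries from their deviations, though some libraries of different number correlated as much. With this number as a block, 0 members passed in each of the 3 tests, and the block changed no other call on a member. The difference in members with a gene-end peak (4.5 per list) was -2.75 at a -log10 q of at least 5, and 2.75 to 5.42 without 1 library. That for body peaks (1.5) was -3.75 at that threshold, -0.25 once all lists were cut to the same length, -1 for peaks 300 bp wide or more, and 0.667 to 2 without 1 library. The difference in the median gene-end percentile (0.223 points) was 2.28 with windows of 2.5 kb, 3.49 in odd-numbered and -1.19 in even-numbered libraries, and -2.37 without DMSO replicate 1 to 1.07 without DMSO replicate 3; fewer lists or wider windows let more members (13 to 18) enter this median. Over 317 alternatives for 16 single-gene differences, 0 changed direction and 5 came to pass the threshold: the widths of COL5A1, COL5A2, COL16A1 and COL4A3 without DMSO replicate 4 and the percentile of COL11A1 in odd-numbered libraries. These 16 differences were picked with the results known, and the block and the permutation keep the estimate of the main fit. The percentiles of COL4A3 and COL4A4 are those of 1 shared peak. The lack of a reversal is therefore no evidence that the differences are robust. Every alternative listed among the processing steps was run. The direction of the counts per list therefore depends on the threshold for a peak, and read depth, which is unknown, limits what the absence of a call shows. Gene ends shared with a neighbour, such as COL5A2 with WDR75, cannot be given to 1 gene.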

Other observations

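The type IV pair on the X chromosome, COL4A6 (chrX:108155614-108439458) and COL4A5 (chrX:108439838-108697545), lies outside the autosomal set. Like the autosomal pairs it had a gene-end peak in 8 of 8 lists for both genes. COL4A5 had no body peak in any list. COL4A6 had 1, 4, 5 and 3 body peaks in DMSO libraries 1 and 3 and 3MB-PP1 libraries 1 and 3, and 0 in libraries 2 and 4 of both groups. This split follows the replicate number and not the treatment, and no test was made of it.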
